A study of Mus musculus with 4 samples.

Results

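The 100 mouse genes described here carry ribosomal protein symbols: they are the protein-coding RefSeq genes on mm10 whose symbol starts with Rpl or Rps followed by a digit or by p, out of 21887 protein-coding genes. The choice rests on names alone, so it takes 76 cytosolic ribosomal proteins (43 of the large subunit, 3 of its stalk and 30 of the small subunit), 13 paralogs and retrocopies, and 11 genes of another function, 10 of them S6 kinase genes and 1 encoding a binding partner of Rps19. Ribosomal protein genes with other names, such as Rpsa and Fau, fall outside it. Open chromatin was profiled by ATAC-seq, where a transposase cuts accessible DNA and tags it with adapters, in sorted thymocytes of C57BL/6J mice, wild type and 5 to 7 weeks old. The cells were CD4+CD8+ double-positive (DP) thymocytes, 2 samples, and the earlier CD4-CD8- double-negative (DN) thymocytes within the CD25+CD44-/+ gate, 2 samples. No group carried a transgene, deletion or treatment per the labels, and it is not stated whether replicates are from different animals, so their spread may be technical only.

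Ribosomes are built from ribosomal RNA and one copy of most ribosomal proteins, so cells need these proteins in near equal amounts. Large-subunit proteins surround the site of peptide bond formation and the exit tunnel, small-subunit proteins surround the path of the messenger RNA, and the acidic stalk recruits elongation factors. In mammals each protein is usually made from a single short gene with introns, whose messenger RNA starts with a run of pyrimidines (the TOP motif) that links its translation to nutrient and growth signals. Immature thymocytes divide rapidly after the beta chain of their receptor has been made, and then become small resting DP cells. In mice, loss of Rpl22 arrests alpha-beta T cells during that passage.

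The deposited lists held 39718 peaks in DP 1, 70385 in DP 2, 38808 in DN 1 and 33131 in DN 2. Read counts are not given, so the depth of each sample is unknown, and an absent peak and a peak missed for want of reads cannot be told apart. DP 2 was the longest list and DN 2 the shortest. A gene was counted in a list when a peak had its midpoint within 1000 bp of either end of its annotated span, called a gene-end peak here. By this measure the DP markers Cd4, Cd8a and Cd8b1 each had a peak in DP 1 and in DP 2, and in neither DN 1 nor DN 2. Of the DN markers, Notch1 had a gene-end peak in DP 1, DP 2 and DN 1, and Il2ra, which encodes CD25, in DP 2 and DN 1 but not in DN 2. Among genes of other cell types, Spi1 (1 of 4 myeloid markers) and Pdgfrb (1 of 3 stromal markers) had one in both DP lists and in neither DN list, Cd79a (B cell) in DP 2 alone, and Ebf1 (B cell) in all 4 lists. A peak near such a gene is not its expression, and the part of other cells in the results was not tested.

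Ribosomal protein genes had gene-end peaks more often in DP than in DN lists. Of the 100 genes, 81 had one in DP 1 and 81 in DP 2, against 57 in DN 1 and 42 in DN 2. Among all protein-coding genes the shares were 46.0% in DP 1 and 48.9% in DP 2, against 36.8% in DN 1 and 25.9% in DN 2. Both DP lists lay above both DN lists in each comparison. The mean was 81% ± 0 in DP and 49.5% ± 10.6 in DN samples (SD, n = 2 each), a difference of 31.5 percentage points. The two-sided exact permutation test over samples gave p = 0.33, which is the smallest value that 2 samples against 2 can give. Set against all genes of the same list, the ribosomal protein genes stood 35.0 and 32.1 percentage points higher in DP 1 and DP 2, against 20.2 and 16.1 in DN 1 and DN 2. That excess differed by 15.4 points between DP and DN samples, again with an exact permutation p of 0.33. With every list limited to the 33131 peaks of the shortest, the counts were 80 and 80 of 100 in the DP lists against 54 and 42 in the DN lists, and all genes stood at 44.7 and 44.7% against 35.5 and 25.9%.

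The 76 cytosolic ribosomal proteins accounted for most of these peaks. They had a gene-end peak in 93.4 and 90.8% of cases in DP 1 and DP 2, against 67.1 and 48.7% in DN 1 and DN 2. Large-subunit genes stood at 95.3 and 86.0% in DP against 58.1 and 41.9% in DN lists. Small-subunit genes stood at 90 and 96.7% in DP against 76.7 and 60% in DN lists, so in both DN lists they had a gene-end peak more often than large-subunit genes, while the DP lists put the subunits in opposite orders. All 3 stalk genes had a peak in DP 1, DP 2 and DN 1, and DN 2 held only Rplp0, the protein that anchors the stalk to the ribosome. The 13 paralogs reached 30.8 and 46.2% in DP against 15.4 and 23.1% in DN lists, near or below the share of all genes, and the 11 genes of another function 54.5 and 54.5% in DP against 36.4 and 18.2% in DN lists.

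**Figure D1:**
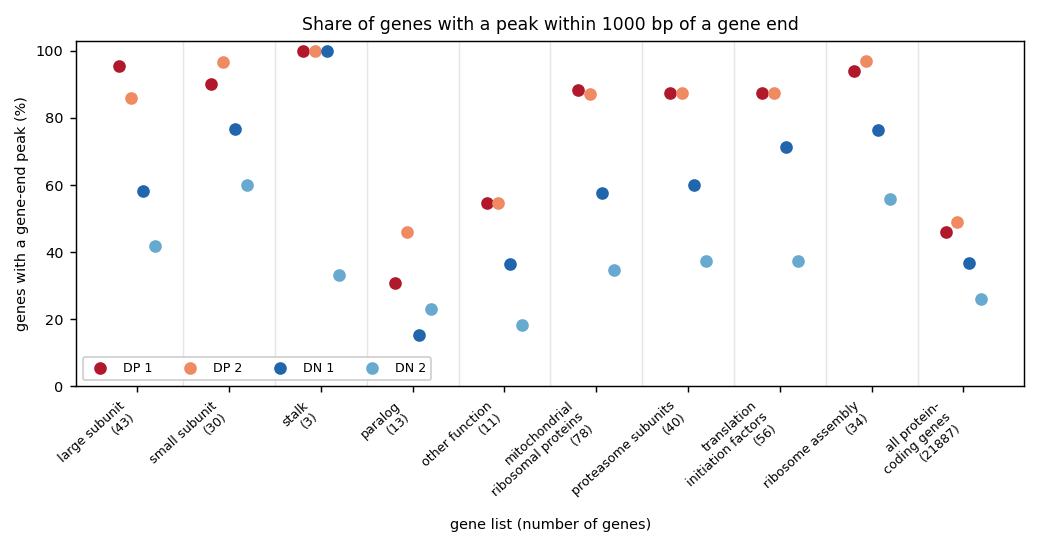
Percent of genes with a peak midpoint within 1000 bp of a gene end (vertical axis) in each gene list (horizontal axis, number of genes in brackets). Each point is 1 peak list, DP 1, DP 2, DN 1 and DN 2 from left to right. Large- and small-subunit genes lie at 86.0% or above in both DP lists and at 76.7% or below in both DN lists.

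Across the 4 lists, 41 of the 100 genes had a gene-end peak in all of them, beside 21.7% of all genes. These were 18 large-subunit genes (among them Rpl7, Rpl10, Rpl15, Rpl18, Rpl24, Rpl27a, Rpl29, Rpl30, Rpl36, Rpl37 and Rpl41), 18 small-subunit genes (among them Rps3, Rps6, Rps7, Rps19, Rps20, Rps23, Rps25, Rps26, Rps27, Rps27a and Rps29), Rplp0, the paralogs Rpl22l1 and Rpl36al, and the kinase genes Rps6ka3 and Rps6ka5. Another 18 genes had one in both DP lists and in neither DN list, beside 9.61% of all genes. No member had the opposite pattern (0 of 100), beside 0.813% of all genes. In 17 genes 3 lists held a peak (12.5% of all genes), in 10 genes 1 list did (8.91%), and 14 genes had none, beside 44.7% of all genes.

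The 18 genes with peaks in DP alone were more often of the large subunit (12 genes) than of the small subunit (4 genes, among them Rps4x and Rps16), and the other two were the paralog Rpl7l1 and Rps19bp1. As a share of the genes that both DP lists held, they were 18 of 76, or 23.7%, and the same share over all genes was 22.4%. This pattern was therefore about as frequent as elsewhere in the genome. Within the subunits it was 32.4% for large-subunit and 14.8% for small-subunit genes. All 41 members held by both DN lists were also held by both DP lists, where 92.8% of all such genes were. The count of members depended on DN 1. Without it, 34 genes had peaks in both DP lists and none in DN 2, since 16 of the 17 genes with 3 lists lacked only DN 2. Over all genes, 2550 were in both DP lists and 1 DN list. Their count without DN 1 is not given here, so the 34 cannot be set against all genes.

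**Figure D2:**
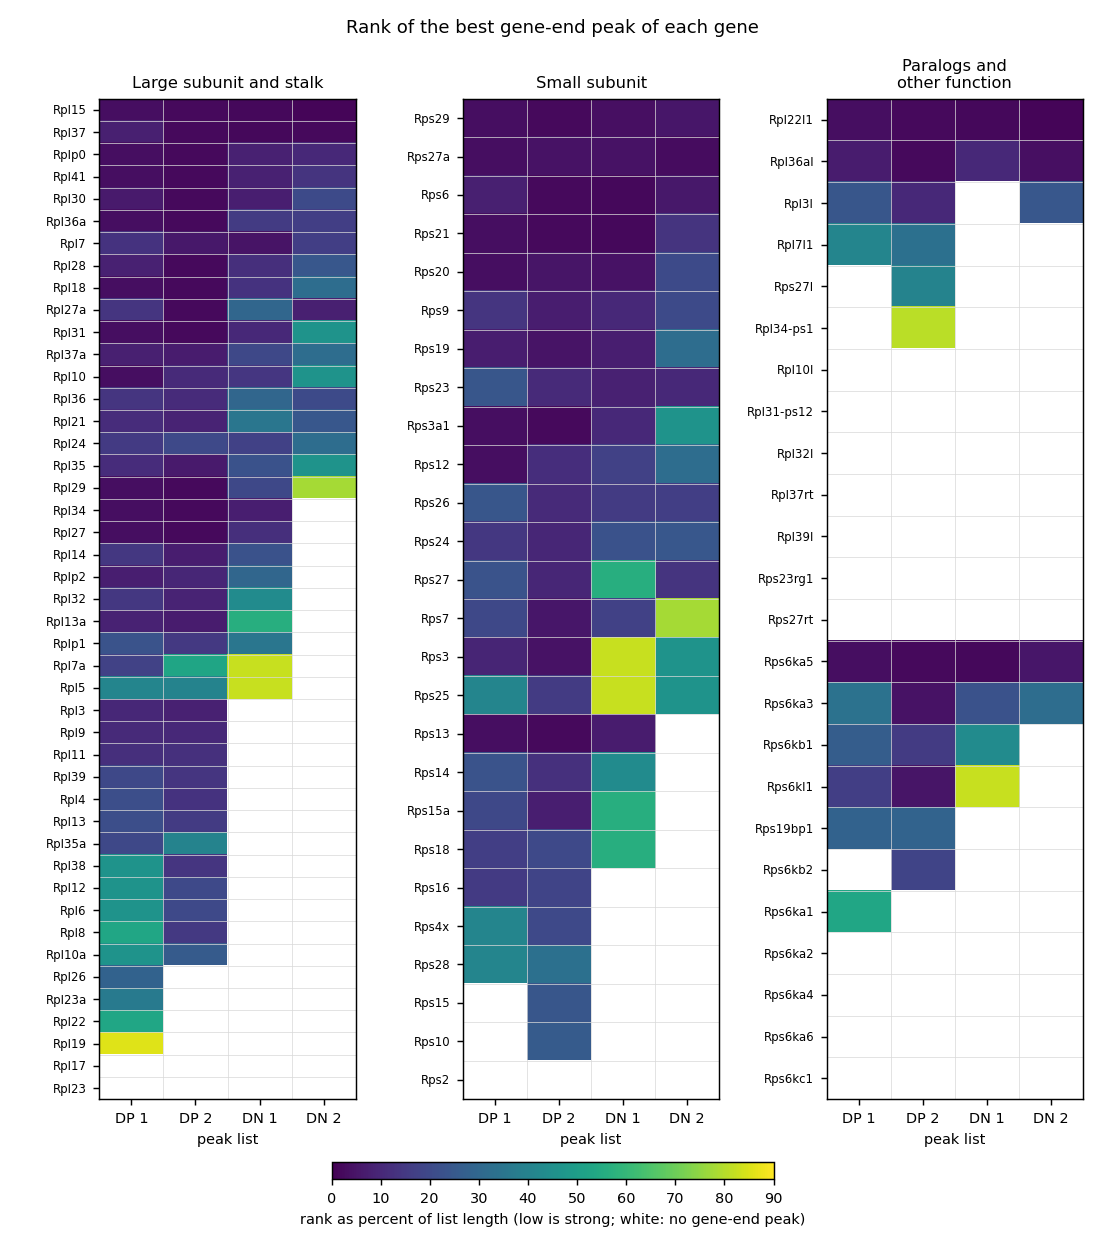
Rank of the best gene-end peak of 95 of the 100 genes (rows) in DP 1, DP 2, DN 1 and DN 2 (columns), as a percent of the length of that list; dark colours are low values (smaller p-values), and white cells have no gene-end peak. White cells are most frequent in the DN columns and among paralogs, and both DP columns are filled for 71 of the genes shown.

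The peaks of 41 genes were compared by 2 measures: their width, and their rank by the authors' p-value, written as percent of the list length with tied peaks at their mean rank, where a low percent is a small p-value. Many peaks share the smallest p-value of 1e-12, so the lowest percent possible was 3.20 in DP 1, 2.23 in DP 2, 1.78 in DN 1 and 1.10 in DN 2. Ranks from lists of different lengths show no change between them and are given as a description. Rpl15, a large-subunit protein, reached the lowest rank possible in all 4 lists. Its gene lies on chr14:18267823-18270986 (minus strand), and its peak was 750 bp wide in DP 1 and 750 bp in DP 2, against 700 bp in DN 1 and 700 bp in DN 2. The same peak lies at an end of Nkiras1. Rpl22l1 on chr3:28805508-28807424 (plus strand), the paralog that can take the place of Rpl22 in the ribosome, was likewise at the lowest rank in all 4 lists, with widths of 650 and 750 bp in DP against 750 and 700 bp in DN lists.

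Among the other genes of low mean rank, Rpl37 had peaks of 800 and 750 bp in DP against 750 and 750 bp in DN lists. Rps6, the substrate for which the S6 kinases are named, had 850 and 700 bp in DP against 650 and 600 bp in DN lists. In Rps6 both DP widths lay above both DN widths, and in Rpl37 the groups touched at 750 bp. Rps27a, which is made as a fusion with ubiquitin, had the widest peaks of the 41 by their mean, at 1000 and 1050 bp in DP against 1000 and 900 bp in DN lists, and the position is shared with Clhc1. Rps6ka5, a nuclear kinase that phosphorylates histone H3 and CREB, had 950 and 950 bp in DP against 900 and 900 bp in DN lists.

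At the other end of the order, Rps25 ranked last of the 41 by the mean over the lists. Its peak was 850 bp in DP 1 and 900 bp in DP 2, against 300 bp in DN 1 and 400 bp in DN 2, and its rank was 41.0 and 15.7% in DP against 82.3 and 46.3% in DN lists. The DN peaks also lay 513.5 bp before the annotated start, against 288.5 and 263.5 bp for the DP peaks, at the end that it shares with Trappc4. Rps3, which lines the entry of the messenger RNA channel, ranked next, with 700 and 750 bp in DP against 350 and 450 bp in DN lists. Rpl29 had 700 and 900 bp in DP against 550 and 300 bp in DN lists, with the lowest possible rank in both DP lists and 19.5 and 77.9% in DN 1 and DN 2. In these 3 genes DP and DN widths did not overlap. Rps7 overlapped, with 650 and 650 bp in DP against 650 and 350 bp in DN lists.

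Over the 41 genes, the median width was 750 and 800 bp in DP 1 and DP 2, against 650 and 550 bp in DN 1 and DN 2. The same 4 medians were found over all 4750 genes with a gene-end peak in every list. Shares and medians given for all genes in this paragraph are over these 4750. The difference of 175 bp between DP (775 ± 35.4 bp) and DN means (600 ± 70.7 bp, SD, n = 2 each) had an exact permutation p of 0.33. Both DP peaks were wider than both DN peaks in 30 of 41 genes, or 73.2%, beside 59.1% of all genes, and the opposite held in 0 genes, beside 1.94%. The 11 genes with overlapping widths were Rpl22l1, Rpl30, Rpl37, Rpl37a, Rplp0, Rps7, Rps19, Rps23, Rps27a, Rps29 and Rps6ka3. The median rank was 7.33 and 4.54% in DP 1 and DP 2, against 11.97 and 20.1% in DN 1 and DN 2, a difference of -10.1 with an exact permutation p of 0.33. With only the top 50% of each list it was -18.2. Over all genes it was 7.33 and 2.23% in DP against 8.88 and 13.7% in DN lists. Both DP ranks lay below both DN ranks in 22 of 41 genes (42.5% of all genes) and above them in 3 genes, Rpl15, Rpl22l1 and Rps23 (17.4% of all genes). Tied peaks at their lowest rank in place of their mean rank left Rps23 alone above, beside 5.54% of all genes, and 26 of 41 below, beside 64.0%.

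**Figure D3:**
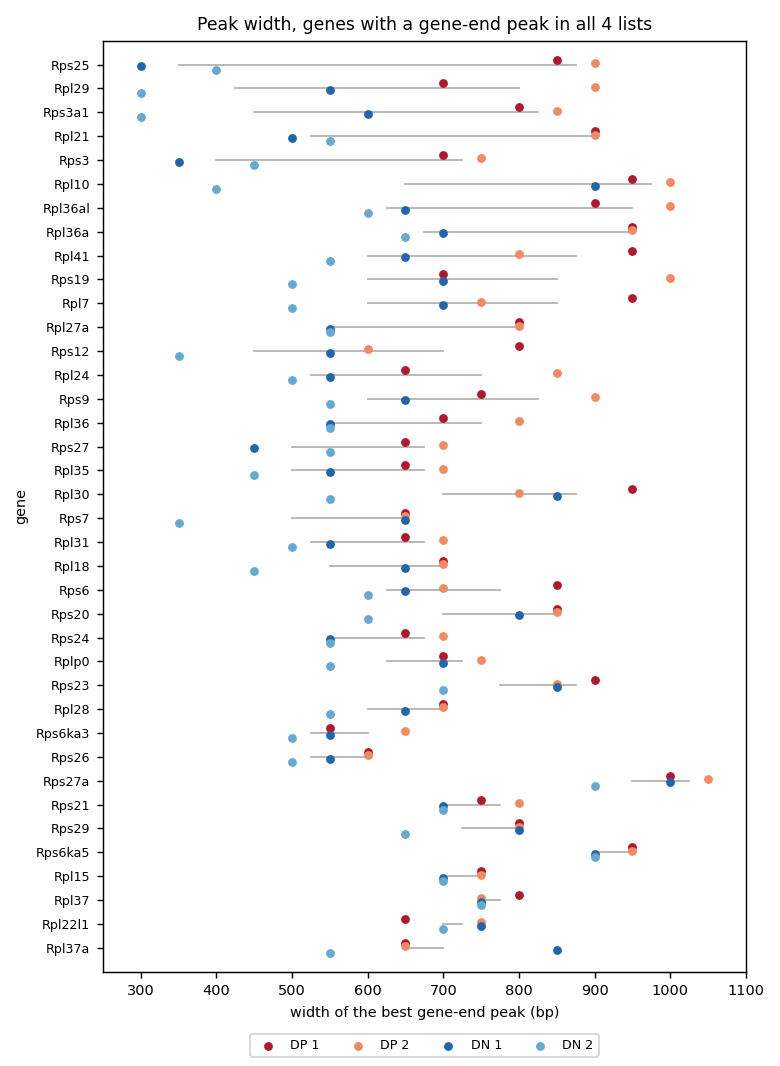
Width in bp of the best gene-end peak (horizontal axis) for 38 of the 41 genes with a gene-end peak in all 4 lists, ordered by the difference between the DP and DN means. Points are DP 1, DP 2, DN 1 and DN 2, and the grey line joins the group means. Rps25 has the largest difference, with 850 and 900 bp in DP against 300 and 400 bp in DN lists.

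In 39 of the 41 genes the 4 best peaks shared bases, by a median of 500 bp. Of the 4750 genes with a gene-end peak in every list, 92.5% did so. The exceptions were Rps6ka3 and Rpl41. For Rpl41 the best peak lay beyond the far end of the gene in DP 1, DP 2 and DN 1 and at its start in DN 2. Each list held 2 gene-end peaks at Rpl41. A peak at its start was present in all 4, with midpoints 32.5 and 7.5 bp from that span end in DP 1 and DP 2, against 82.5 and 7.5 bp in DN 1 and DN 2. Rpl41 is among the 30 genes with wider DP peaks, although its widths come from different positions. Strand was known for the 77 members that have a promoter in the RefSeq table, and offsets were measured from the annotated start. The peak midpoint lay a median of 34.5 bp before the start in DP 1 (55 genes) and 38 bp before it in DP 2 (56 genes), against 66.5 bp in DN 1 (39 genes) and 97 bp in DN 2 (28 genes). The best peak covered the start itself in 53 of 61 genes in DP 1 and 55 of 60 in DP 2, against 35 of 41 in DN 1 and 25 of 30 in DN 2.

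**Figure D4:**
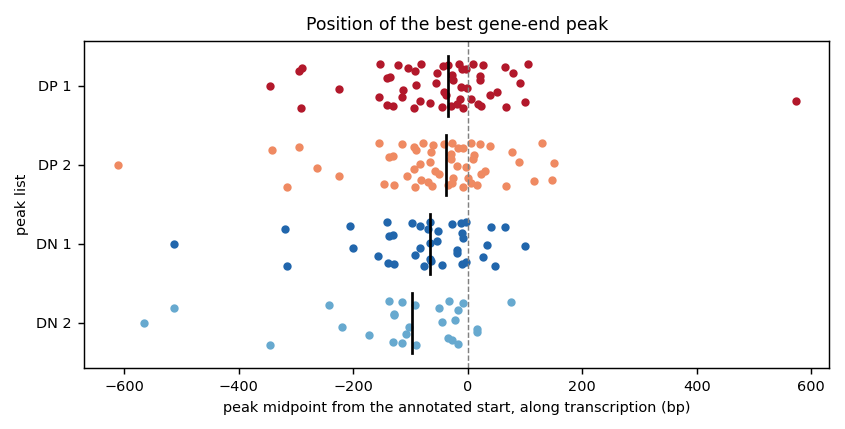
Distance in bp from the annotated start to the midpoint of the best gene-end peak (horizontal axis, negative before the start) in DP 1, DP 2, DN 1 and DN 2 from top to bottom. Each point is 1 gene, the black bar is the median, and peaks nearer the far end or over 1000 bp from the start are left out. The points gather round the start in all 4 lists, with medians at -34.5, -38, -66.5 and -97 bp.

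Promoter letters are shown for genes whose peaks were in all 4 lists and held the stretch whole. Each runs from 100 bases before to 20 bases from the annotated start on, 5′ to 3′ on the strand of the gene, and is credited to RefSeq, build GRCm38.p6. Capitals mark a run of at least 6 pyrimidines that touches the 5 bases on either side of the start, and whole matches, on either strand, of the motifs spelled out with their frequencies after the sequences.
Rpl15 (chr14:18270967-18271086, minus strand): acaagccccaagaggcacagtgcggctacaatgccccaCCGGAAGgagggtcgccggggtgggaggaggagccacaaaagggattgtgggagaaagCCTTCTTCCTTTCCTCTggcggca
Rps6 (chr4:86857348-86857467, minus strand): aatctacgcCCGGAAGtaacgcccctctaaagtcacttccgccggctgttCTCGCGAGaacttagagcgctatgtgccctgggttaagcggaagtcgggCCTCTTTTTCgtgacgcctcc
Rpl37 (chr15:5116513-5116632, plus strand): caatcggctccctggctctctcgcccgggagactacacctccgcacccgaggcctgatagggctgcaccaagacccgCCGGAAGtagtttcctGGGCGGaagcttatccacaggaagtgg
Rpl22l1 (chr3:28805408-28805527, plus strand): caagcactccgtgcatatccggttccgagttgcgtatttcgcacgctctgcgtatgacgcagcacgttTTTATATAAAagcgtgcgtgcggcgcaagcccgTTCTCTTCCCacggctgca
Rpl15 carries a pyrimidine run of 17 bases at its start, the Rps6 run is 10 bases long, and no run of that length stands at the start of Rpl37. Rpl22l1 differs from the others shown by a TATA box before its start.

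The next stretches come from genes whose peaks were in both DP lists, which hold the stretch whole, and in neither DN list.
Rpl11 (chr4:136053374-136053493, minus strand): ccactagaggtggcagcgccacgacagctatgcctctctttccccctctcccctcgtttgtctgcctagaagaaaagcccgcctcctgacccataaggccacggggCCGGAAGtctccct
Rpl12 (chr2:32961612-32961731, plus strand): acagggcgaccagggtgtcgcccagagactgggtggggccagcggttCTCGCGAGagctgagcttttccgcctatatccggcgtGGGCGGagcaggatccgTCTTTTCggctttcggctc
Rpl9 (chr5:65391412-65391531, minus strand): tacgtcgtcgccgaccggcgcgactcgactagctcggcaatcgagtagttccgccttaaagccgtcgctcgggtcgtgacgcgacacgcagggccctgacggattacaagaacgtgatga
Rpl11, which joins Rpl5 and a small ribosomal RNA in the complex that inhibits Mdm2, has an ETS match as Rpl15, Rps6 and Rpl37 do. Rpl12, a protein at the base of the stalk, has the CTCGCGAG palindrome as Rps6 does, and in Rpl9 none of the letters searched were found in the stretch.

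Short motifs were searched on both strands in the RefSeq windows of 300 bases (250 before to 50 after the start). Of 56 cytosolic ribosomal protein promoters, 39.3% held CCGGAAG, the letters of ETS factors, beside 11.9% of 17492 promoters of protein-coding genes. The ZBTB33 letters CTCGCGA, which overlap their own reverse complement in the palindrome, were in 23.2% of them, beside 2.75% of all promoters. AAGATGG, read by YY1, was found in 16.1% of them, beside 6.35% of all. The GC box GGGCGG was in 58.9%, beside 46.3% of all. Other motifs were nearer the share of all promoters. For the TATA box, TATAAA, the share was 10.7% beside 13.3%. For the E-box, CACGTG, it was 8.93% beside 7.91%. The NF-Y letters GATTGG were in 16.1% beside 18.8%, and the ZNF143 letters ACTACAA in 5.36% beside 3.82%. A pyrimidine run at the start was present in 48.2% (20.7%), and the first transcribed base was C in 35.7% (13.7%). Among the 26 promoters of genes in all 4 lists 46.2% held the ETS letters, 26.9% the ZBTB33 letters and 50% a pyrimidine run, and among the 13 of genes in DP alone 30.8, 15.4 and 38.5%. These are 12 and 4, 7 and 2, and 13 and 5 promoters. A match is a description of letters and not a bound site.

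**Figure D5:**
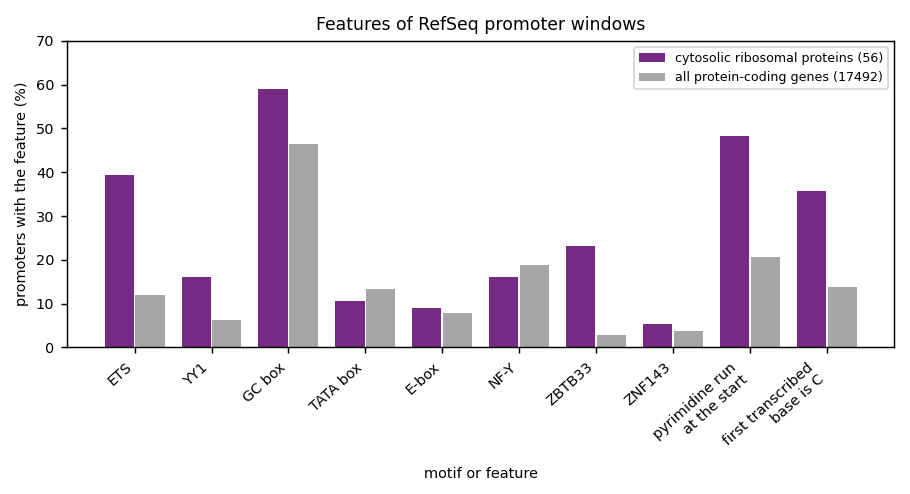
Percent of RefSeq promoter windows of 300 bases (vertical axis) that hold each motif or feature (horizontal axis), for 56 cytosolic ribosomal proteins (purple) and all 17492 protein-coding promoters (grey). The bars differ most for the ETS letters (39.3 against 11.9%), the pyrimidine run (48.2 against 20.7%), the first base C (35.7 against 13.7%) and the ZBTB33 letters (23.2 against 2.75%).

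The 18 genes with peaks in DP alone had narrower DP peaks of higher rank percent than the 41. Their median width was 600 bp in DP 1 and 600 bp in DP 2, and their median rank 28.4 and 17.0%, while the 41 had 750 and 800 bp and 7.33 and 4.54% in the same lists. None of the 18 reached the smallest p-value in DP 1 or DP 2, where 18 and 20 of the 41 did. Over all genes 20 and 24 of 2104 in DP alone did so, against 2124 and 2534 of 4750 in all 4 lists, so the members followed the contrast of all genes. The widths did likewise, with 550 and 600 bp for 2104 genes in DP alone and 750 and 800 bp for 4750 genes in all 4 lists. Members of both DP lists and 1 DN list lay between, at 650 and 700 bp.

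The lowest rank among the 18 belonged to Rpl3, which reaches toward the site of peptide bond formation, with peaks of 650 and 750 bp at ranks of 9.93 and 8.35% in DP 1 and DP 2. Rpl9 had 850 and 600 bp at 10.7 and 10.2%, and the peak is shared with Lias. Rpl11 had 600 and 600 bp at 12.3 and 12.5%. Rpl38, which in mouse embryos is needed to translate Hox messenger RNAs, had 550 and 600 bp at 46.2 and 13.9%. In DN 1 the peak nearest to Rpl38 lay 1257.5 bp from a span end, outside the limit of 1000 bp. The place of Rpl38 among the 18 therefore rests on that limit. The best peaks counted for Rpl4, which lines the exit tunnel, lay beyond its far end, where an end of Snapc5 also lies. In DP 2 no other gene-end peak was counted for Rpl4. The remaining genes in DP alone, among them Rpl6, Rpl10a, Rpl12, Rpl13, Rpl39, Rps4x, Rps16 and Rpl7l1, had widths of 400 to 800 bp.

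Of the 17 genes with 3 lists, 16 lacked DN 2 alone, among them Rpl5, Rpl7a, Rpl13a, Rpl14, Rpl34, Rplp1, Rplp2, Rps13, Rps14, Rps18 and Rps6kb1. Rpl5, the partner of Rpl11, had peaks of 500 and 400 bp in DP against 350 bp in DN 1. Its best DP 1 peak lay 572.5 bp after the annotated start and shared no bases with the DN 1 peak. DP 1 held 2 gene-end peaks at Rpl5. The other had its midpoint 7.5 bp from the span end at the start, within the DN 1 peak. Rps14, whose loss on one chromosome is linked to an anaemia in humans, had 800 and 850 bp in DP against 450 bp in DN 1. Rps13 had 800 and 900 bp in DP, at the lowest rank possible in both, against 700 bp in DN 1. In these 3 genes the best peaks of both DP lists were wider than the DN 1 peak. For Rpl5 the best DP 1 peak lay at another position, so its width is not that of the peak at the start. The exception that lacked DN 1 was Rpl3l, a paralog of striated muscle, whose peak lay at its far end with Msrb1 and measured 600 and 600 bp in DP against 450 bp in DN 2.

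The 10 genes with 1 list were all found in DP lists. Rpl19, Rpl22, Rpl23a, Rpl26 and Rps6ka1 were in DP 1, and Rps10, Rps15, Rps27l, Rpl34-ps1 and Rps6kb2 in DP 2. Rpl19 counted through a peak of 300 bp at the largest p-value of the list. That peak lay at an end of Cacnb1, 3959.5 bp from the nearest RefSeq start of Rpl19. Rps6ka1 also had a DP 2 peak 34.5 bp from a RefSeq start inside its span. Rpl22 counted through a peak of 400 bp near its far end, 931.5 bp away, the member closest to the limit of 1000 bp from inside. The nearest outside it were Rpl13a in DN 2 at 1137.5 bp and Rpl17 in DP 2 at 1147.5 bp. Rpl22 has a second RefSeq start 1290 bp inside its span, and a peak lay 24.5 bp from that start in DP 1 and 99.5 bp in DP 2, with widths of 700 and 650 bp. The nearest DN peaks lay 28625.5 and 28500.5 bp from it in DN 1 and DN 2. Rps27l, a paralog of Rps27 that p53 induces, also had peaks at an inner start in both DP lists, at 110.5 and 60.5 bp, while the nearest DN peaks lay 28914.5 and 97864.5 bp from that start.

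Only 3 of the 76 cytosolic ribosomal proteins had no gene-end peak: Rpl17, Rpl23 and Rps2. Rpl17, whose protein lies near the exit of the tunnel, had its nearest peaks just beyond the limit in all 4 lists, at 1172.5 and 1147.5 bp in DP 1 and DP 2 against 1472.5 and 1347.5 bp in DN 1 and DN 2. Rps2 owed its lack of one to its annotated span, since the RefSeq start lies 1864 bp from the nearer span end, and peaks lay 112.5 bp from that start in DP 1, 62.5 bp in DP 2 and 212.5 bp in DN 1, with widths of 700 and 700 bp in DP against 300 bp in DN 1. In DN 2 the nearest peak was 16412.5 bp away. Rpl23, another protein that binds Mdm2, had its nearest peaks 15888.5 and 15788.5 bp from its start in DP 1 and DP 2, against 79263.5 and 79838.5 bp in DN 1 and DN 2. The stretches that follow are those of Rpl23 and Rps2, and the Rps2 peaks hold the stretch whole in both DP lists and touch it in DN 1.
Rpl23 (chr11:97782420-97782539, minus strand): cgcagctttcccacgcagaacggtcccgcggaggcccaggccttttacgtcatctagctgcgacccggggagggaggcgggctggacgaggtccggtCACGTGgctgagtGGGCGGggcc
Rps2 (chr17:24719963-24720082, plus strand): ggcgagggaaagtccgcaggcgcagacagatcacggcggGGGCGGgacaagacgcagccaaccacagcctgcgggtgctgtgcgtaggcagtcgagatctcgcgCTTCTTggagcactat
Both carry a GC box, and Rpl23 carries the E-box letters, so these letters were also present at Rpl23, where no list held a peak. With RefSeq starts counted beside span ends, an alternative chosen after the data were seen, the members with a peak were 85 and 87 in DP 1 and DP 2 against 61 and 45 in DN 1 and DN 2, with 43 in all 4 lists and 20 in DP alone. All genes then stood at 49.6 and 52.7% in DP against 40.0 and 28.3% in DN lists. Shares of all genes for the patterns behind the 43 and 20 are not given under this rule.

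The other 11 genes without a gene-end peak were kinases and copies. Rps6ka2 and Rps6kc1 had peaks at a RefSeq start inside the span in all 4 lists. Those of Rps6ka2, a member of the RSK family, were 800 and 750 bp wide in DP against 750 and 600 bp in DN lists. Rps6ka6 had a peak within 1000 bp of an inner start in DP 2 and DN 2, and Rps6ka4 completes the kinases. The copies without a gene-end peak were Rpl10l and Rpl39l, which in mice are made in the testis, and Rpl31-ps12, Rpl32l, Rpl37rt, Rps23rg1 and Rps27rt. Of the paralogs with one, Rpl36al, which shares its peak with Mgat2, had 900 and 1000 bp in DP against 650 and 600 bp in DN lists, and Rpl7l1 400 and 500 bp in the DP lists alone.

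Near-identical copies limit the reading of these peaks, because reads from a gene and its processed copies can be hard to place, and how such reads were treated is not given in the sources used here, and their part was not tested. Of 306 ribosomal protein pseudogenes by symbol, 2 had a gene-end peak in DP 1 and 8 in DP 2, against 1 in DN 1 and 1 in DN 2. A shared position is a further limit: in 19 of the 86 genes with a gene-end peak, that peak also lay at the end of another protein-coding gene in every list that held it, and in 0 of them was the other gene a member. Besides those named they include Rpl12 with Lrsam1, Rpl36 with Micos13, Rps18 with Vps52, Rps27 with Rab13 and Rps28 with Ndufa7. Of the 76 cytosolic genes, 29 hold an annotated small nucleolar RNA within their span. Of these 29 genes 11 (37.9%) were in all 4 lists, and of the 47 without one 26 (55.3%).

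Rpsa and Fau, ribosomal protein genes with other names, had gene-end peaks in both DP lists and in neither DN list. Rpsa, which also serves as a laminin receptor, had 750 and 800 bp in DP 1 and DP 2, at the lowest rank possible in both, and no gene-end peak in DN 1 or DN 2. It differs in this from the 18 members in DP alone, none of which reached the smallest p-value. Fau had 550 and 550 bp in DP 1 and DP 2 and none in the DN lists.

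Other gene lists of protein synthesis and turnover were set beside the members as a description. Mitochondrial ribosomal proteins (78 genes) had gene-end peaks in 88.5 and 87.2% of cases in DP against 57.7 and 34.6% in DN lists, with 26 genes in all 4 lists and 19 in DP alone. Proteasome subunits (40 genes) had 87.5 and 87.5% in DP against 60 and 37.5% in DN lists, with 15 in all 4 and 9 in DP alone. Translation initiation factors (56 genes) had 87.5 and 87.5% in DP against 71.4 and 37.5% in DN lists, with 20 in all 4 and 10 in DP alone. Ribosome assembly genes (34 genes) had 94.1 and 97.1% in DP against 76.5 and 55.9% in DN lists, with 18 in all 4 and 5 in DP alone. All 12 elongation factor genes had a peak in both DP lists, against 91.7 and 83.3% in DN lists. In each of these lists both DP values lay above both DN values, so nothing in this order was particular to ribosomal protein genes.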

How the data were processed

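Open chromatin was profiled by ATAC-seq in 2 DP and 2 DN thymocyte samples, grouped by the sample labels. Per the submitters' processing notes the build was mm10 and the tools included Bowtie2 and Picard. PeakDEck is known only from the names of the deposited lists, 1 per sample; for its settings and the read filters, nothing is given in the sources used here. Each deposited list gives a p-value per peak, the authors' own, used only to rank peaks within a list. No list copied another: between 1.34 and 6.26% of peaks in the shorter of a pair recurred with the same coordinates. Peaks start on a grid of 50 bp. Some genes are counted but not reported here by name.

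For each gene in the RefSeq table of GRCm38.p6, the best gene-end peak was the one with the smallest p-value, then the widest. Groups were compared by two-sided exact permutation over samples. Genes were named by their pattern over the lists, by lowest or highest mean rank or width, or by class. The members and lists were chosen with earlier results of these data known, and 5 paralog symbols were added to the list after the files were seen. On simulated peaks, 200 of 200 inside the window were recovered and 0 of 200 outside it were called, over 21887 genes. Alternatives covered list length and threshold, window size, overlap rule, gene end, member class, ties, each sample left out and the replicate number as a block. The labels give same-numbered samples nothing in common but the number. Their deviations in width correlated at -0.000712 across 4750 genes, which cannot show whether the samples were paired. The software was Python 3.11.15 with pandas 2.3.3, numpy 2.4.6, matplotlib 3.10.9 and scipy 1.17.1.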

Additional observations from a re-analysis of the deposited data

How the results depend on the processing

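Of 98 values recomputed under the alternatives, 91 moved by less than the pooled SD between replicates or, for counts, by at most 1.5 times. No difference changed direction, and a count has no direction to change. The values with the replicate number as a block are among the 98 and could not move, since each block holds a sample of both groups. With the top 50% of each list the excess over all genes was 20.1 percentage points and the rank difference -18.2. The excess was also larger with lists limited to the shortest (18.0 points) and for cytosolic ribosomal proteins only (18.1 points). The difference in genes with a gene-end peak was 39 points without DN 1 and 24 points without DN 2, its range over the 4 samples left out in turn. The genes in both DP lists and in no DN list that remained ran from 19 to 34, the highest without DN 1. With the replicate number as a block the differences stayed at 31.5 and 15.4 percentage points, 175 bp and -10.1 percent of rank, with an exact sign-flip p of 0.5 each, the smallest that 2 pairs allow; the numbers are not shown to pair the samples. Genes in every list used ranged from 29 to 57. The 29 were of 77 genes, with only the end at the start of transcription, and the 57 were without DN 2. With all 4 lists and all 100 genes the count ran from 34 (top 50% of each list) to 45 (window of 2500 bp). Genes in both DN lists alone stayed at 0 throughout. With 2 samples a group no comparison could fall below the usual threshold, and without read counts depth cannot be separated from the absence of a peak.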
